A study of Mus musculus with 10 samples.

Results

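The genes examined were 10 that mark the macrophage surface and its signalling machinery: Adgre1, Csf1r, Itgam, Fcgr1, Cd14, Tyrobp, Fcer1g, Aif1, Mpeg1 and Lyz2. They were taken by name, and all 10 were found among the 21887 protein-coding genes of the GRCm38.p6 gene table. Every called peak over each gene and the 5 kb on either side was read from 6 CUT&Tag peak lists. In CUT&Tag, a transposase tethered to an antibody inserts sequencing adaptors into the DNA beside its target. The targets here were nucleophosmin (NPM1), an abundant nucleolar protein that also chaperones histones, and trimethylated lysine 4 of histone H3 (H3K4me3), found at active promoters.

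For NPM1, wild-type (WT) macrophages were taken from mouse hearts 3 days after infarction and 3 days after a sham operation. The other NPM1 libraries came from WT macrophages grown out of bone marrow (BMDM) over 7 days in 50 ng/ml M-CSF, either exposed for 12 hours to interleukin-4 (IL-4) at 20 ng/ml or untreated. H3K4me3 was mapped in cardiac macrophages of Npm1 conditional-knockout and of WT mice, both at day 3 after infarction. The sources used here do not name the promoter that drives the recombinase of the knockout, the number of animals behind a library or the ages of the mice. The series has 10 libraries, and 4 were not analysed here, namely H3K4me3 and a target labelled K5 in BMDM of both genotypes with IL-4. With 1 library in each group, no test was possible and differences between groups have no measured error.

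Macrophages are recognised by receptors that sense growth factor, antibody, complement and bacterial products, and several of these receptors signal through small adaptor chains that carry an immunoreceptor tyrosine-based activation motif. Csf1r keeps macrophages alive, and Adgre1, Itgam, Fcgr1 and Cd14 are widely used to sort them. In myeloid cells several of these genes are known targets of the transcription factor PU.1 and of C/EBP factors.

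The 6 lists held between 52977 and 104514 peaks. The genome-wide background pileup, which grows with depth, could be recovered from the peak values. It was 3.03 reads in the infarct list and 1.29 in the sham list, 4.18 with IL-4 and 1.31 in untreated BMDM, and 2.49 in knockout and 2.92 in WT H3K4me3. The infarct background was thus 2.35 times the sham one, the IL-4 background 3.19 times the untreated one, and the knockout background 0.853 times the WT one. Fold enrichment is the authors' value for a peak's summit over its local background, and −log10 q is their adjusted confidence. Both rank peaks within 1 list, and a difference between values of 2 lists is no measure of change. A peak that is absent was not called at that depth. The 2 H3K4me3 lists also differed over all genes with a peak within 1 kb of a gene end. The strongest such peak per gene had a median summit of 171 reads in the knockout and 29 in WT. Its median width was 1360 bp in the knockout and 681 bp in WT. Npm1 itself had an H3K4me3 gene-end peak in both genotypes, with a fold of 7.97 in the knockout and 7.6 in WT. A promoter mark does not check the deletion.

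Markers of other cell types were read in the same H3K4me3 lists, as peaks within 1 kb of a gene end, in the knockout and then in WT. Over all deposited peaks, cardiomyocyte markers had 0 and 1 of 8, fibroblast markers 4 and 1 of 6, endothelial markers 3 and 1 of 5, neutrophil markers 2 and 3 of 6, T and NK cell markers 2 and 3 of 5, and B cell markers 1 and 0 of 4, beside 61.8% and 57.1% of all protein-coding genes. With −log10 q of 5 or more, cardiomyocyte markers had 0 and 0, fibroblast markers 3 and 0, endothelial markers 1 and 1, neutrophil markers 2 and 0, T and NK cell markers 1 and 0, and B cell markers 1 and 0, beside 57.0% and 42.8% of all genes. The part of other cells in the H3K4me3 values below was not tested.

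RefSeq promoter windows of GRCm38.p6, 250 bases before to 50 after the annotated start, were at hand for Itgam, Fcgr1, Aif1, Mpeg1, Fcer1g and Lyz2 and not for Adgre1, Csf1r, Cd14 and Tyrobp. The windows of 4 genes are shown because a WT H3K4me3 peak reached into them, and capitals mark the bases under that peak. They are Fcer1g at chr1:171234300-171234599, Fcgr1 at chr3:96293920-96294219, Lyz2 at chr10:117282223-117282522 and Aif1 at chr17:35176003-35176302, all on the minus strand and written 5′ to 3′.

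Fcer1g: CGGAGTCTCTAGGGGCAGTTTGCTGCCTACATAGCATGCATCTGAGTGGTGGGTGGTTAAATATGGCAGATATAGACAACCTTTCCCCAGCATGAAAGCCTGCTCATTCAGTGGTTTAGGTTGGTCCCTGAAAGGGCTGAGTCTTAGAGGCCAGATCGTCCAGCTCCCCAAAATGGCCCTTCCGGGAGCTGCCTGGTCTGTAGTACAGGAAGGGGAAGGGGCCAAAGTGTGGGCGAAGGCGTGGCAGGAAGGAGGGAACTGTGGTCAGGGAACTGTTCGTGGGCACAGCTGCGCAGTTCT

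Fcgr1: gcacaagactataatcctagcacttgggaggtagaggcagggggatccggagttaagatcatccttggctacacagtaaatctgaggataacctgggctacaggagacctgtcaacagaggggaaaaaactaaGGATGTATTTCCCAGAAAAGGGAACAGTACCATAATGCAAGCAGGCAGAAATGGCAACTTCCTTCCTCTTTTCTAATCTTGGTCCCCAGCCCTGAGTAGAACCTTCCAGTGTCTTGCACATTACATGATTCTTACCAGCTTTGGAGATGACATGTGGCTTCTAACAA

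Lyz2: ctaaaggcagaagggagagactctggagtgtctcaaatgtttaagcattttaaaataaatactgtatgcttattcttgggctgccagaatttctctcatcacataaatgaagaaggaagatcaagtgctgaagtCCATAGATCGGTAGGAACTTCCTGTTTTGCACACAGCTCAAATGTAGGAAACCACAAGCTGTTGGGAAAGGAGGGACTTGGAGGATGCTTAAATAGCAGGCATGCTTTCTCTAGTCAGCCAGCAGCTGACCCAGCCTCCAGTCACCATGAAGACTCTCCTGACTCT

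Aif1: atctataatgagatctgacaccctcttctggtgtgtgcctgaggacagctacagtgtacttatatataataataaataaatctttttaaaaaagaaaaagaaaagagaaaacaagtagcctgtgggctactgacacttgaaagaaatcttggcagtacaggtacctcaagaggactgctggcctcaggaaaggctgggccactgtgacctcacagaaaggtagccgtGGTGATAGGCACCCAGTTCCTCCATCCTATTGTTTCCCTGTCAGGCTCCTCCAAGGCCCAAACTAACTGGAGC

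The WT H3K4me3 peak took in 300 of the 300 bases at Fcer1g, 167 at Fcgr1, 166 at Lyz2 and 73 at Aif1, and none at Itgam or Mpeg1. In the knockout list the peaks covered 300 bases at each of Fcer1g, Fcgr1 and Mpeg1 and 218 at Itgam, and 0 at Lyz2 and Aif1. Over all 21263 windows a peak was present at 57.7% in the knockout and 49.3% in WT. Lyz2 and Aif1, 2 of the 6, had a peak in WT and none in the knockout, a pattern of 0.894% of all windows. The Aif1 WT peak had a −log10 q of 1.61. The nearest knockout peak at Lyz2 began 154 bp after the start, past the edge of the window. A peak in the knockout and none in WT was found at Itgam and Mpeg1, beside 9.28% of all windows. NPM1 peaks of the infarct list reached the windows of Fcer1g (300 bases), Fcgr1 (270) and Lyz2 (161), and those of the IL-4 list reached the same 3 windows (297, 270 and 131). All genes gave 40.3% of windows for infarct and 40.1% for IL-4. No peak of the sham or the untreated list reached any of the 6, beside 1.51% and 2.3% of all windows.

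The letters GAGGAA, a core of PU.1 sites, were searched on both strands of the 6 windows. They were present at Itgam, Fcgr1 and Aif1, beside 27.4% of all windows. At Fcgr1 they run from base −55 to −50 and at Aif1 from −7 to −2, both on the reverse strand, so that the printed strand reads TTCCTC there, inside the capitals. TTGCNNAA, a core of C/EBP sites, and the TATA letters TATAAA were in none of the 6, beside 10.2% and 12.6% of all windows, on either strand. A match of letters is a description and not a binding site.

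Gene-end peaks are those that overlap, by 1 bp or more, the window of 1 kb to each side of an annotated gene end. NPM1 gene-end peaks were called at 9 of the 10 genes in the infarct list, where 50.6% of all protein-coding genes had one. The sham list had 1 of 10, Cd14, beside 10.9% of all genes. With IL-4, 9 of 10 had one (51.2% of all genes), against 0 of 10 in untreated BMDM (6.71%). Aif1 was the gene without one in both deeper NPM1 lists. For H3K4me3, 9 of 10 had one in the knockout (61.8%) and 9 of 10 in WT (57.1%). Itgam had it in the knockout and not in WT (8.37% of all genes), and Aif1 in WT and not in the knockout (3.73%). At Itgam the summits lay 1765 bp after the start in the knockout and 1710 bp after it in WT, both outside the window. The wider knockout peak reached into it.

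Taken by pair, 8 of the 10 genes had an NPM1 gene-end peak in the infarct list and not in the sham list, a pattern of 43.4% of all genes. The IL-4 list and not the untreated one had a peak at 9 of 10, beside 46.5% of all genes. At a −log10 q of at least 5, the counts were 5 in infarct (27.9% of all genes) and 0 in sham (0.681%), 6 with IL-4 (29.4%) and 0 untreated (0.397%), and 8 in knockout (57.0%) and 6 in WT (42.8%). Fcgr1, Itgam and Mpeg1 passed that threshold in the knockout and not in WT, beside 14.5% of all genes. Over the whole gene and 5 kb on either side, 10 of 10 had a peak in infarct (74.9%) and 4 in sham (52.4%). The counts there were 10 with IL-4 (78.3%) and 3 untreated (36.2%), and 10 in knockout (72.2%) and 10 in WT (77.1%). That window grows with gene length, and the shares of all genes were not matched for it. The median extent was 4938 bp for the 10 genes and 17169 bp for all genes. The deeper library of each NPM1 pair held the larger count both for these genes and for all genes, and with 1 library each the condition cannot be told apart from other differences between the libraries. With summits scaled to the background of the shallower library and kept at −log10 p of 2 or more, an alternative chosen after seeing the data, 9 of the 10 genes had a gene-end peak in infarct (47.3% of all genes) and 8 with IL-4 (43.4%). That cut-off is lenient. The peaks called at the 10 genes had −log10 p of 3.42 or more in sham and 3.47 or more in untreated BMDM. The part of depth was not tested.

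**Figure D1:**
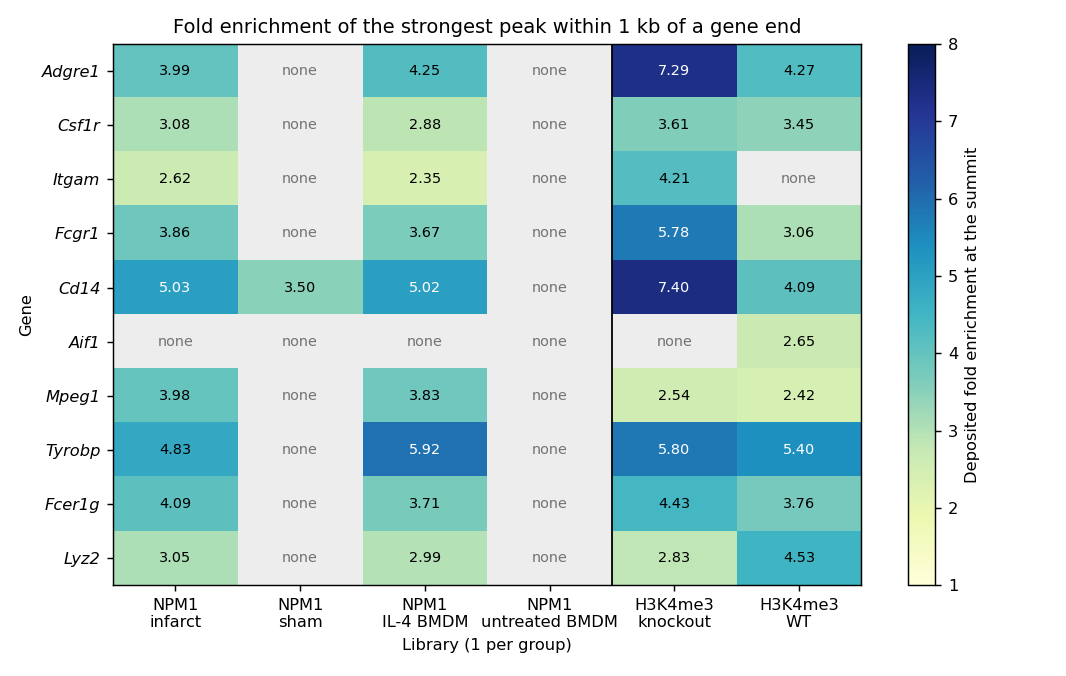
Deposited fold enrichment of the strongest peak within 1 kb of a gene end, for the 10 genes (rows) in the 6 libraries (columns, 1 library each). Cells marked none had no called peak there. The infarct, IL-4 and H3K4me3 columns are nearly filled, the sham column holds Cd14 alone at 3.50, and the untreated column is empty.

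Summed over all 10 genes and their flanks, 38 NPM1 peaks were called in the infarct list and 6 in the sham list, 49 with IL-4 and 9 in untreated BMDM. H3K4me3 gave 41 peaks in the knockout and 40 in WT. Of the 38 infarct peaks, 14 were at a gene end, 13 elsewhere inside a gene and 11 in a flank. The 6 sham peaks had 1 at an end, 3 inside and 2 in a flank, and the 9 untreated peaks had 0, 8 and 1. The few peaks of the shallower NPM1 lists thus lay mostly away from the gene ends, and 7 of the 9 untreated ones lay in Adgre1 alone. All genes showed this too. In sham, 10.9% of them had a gene-end peak and 52.4% a peak over the gene and 5 kb on either side. In untreated BMDM the shares were 6.71% and 36.2%.

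**Figure D2:**
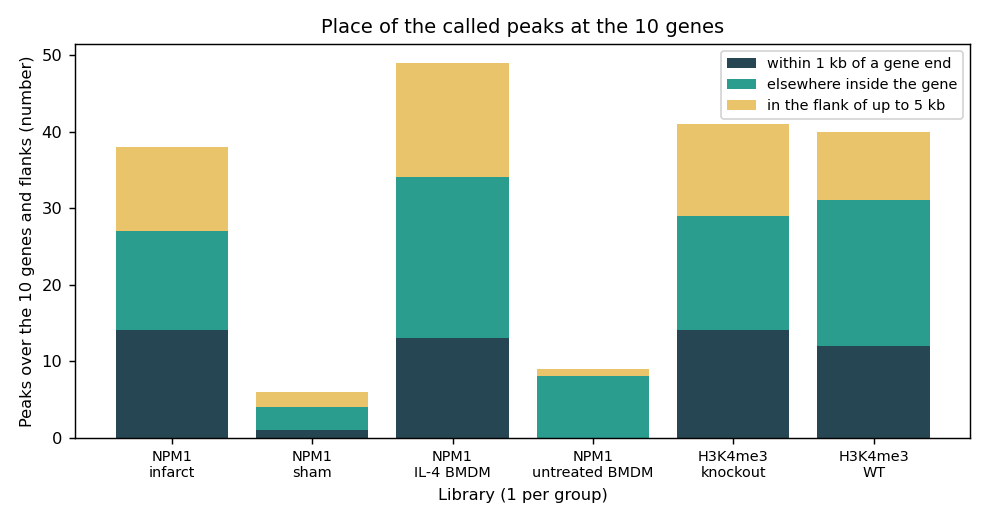
Number of called peaks over the 10 genes and 5 kb on either side in each library, stacked by place (within 1 kb of a gene end, elsewhere inside, or in the flank). The infarct bar reaches 38 and the sham bar 6, the IL-4 bar 49 and the untreated bar 9, and the knockout and WT H3K4me3 bars 41 and 40.

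Merged over the 6 lists, the peaks formed 76 separate sites, of which 36 were called in 1 list, 17 in 4 lists, 2 in 5 lists and 0 in all 6. At 18 sites the infarct, IL-4, knockout and WT lists all had a peak. Each of the 10 genes had at least 1 such site, beside 51.0% of all protein-coding genes. All deposited peaks were counted, and at Aif1 the WT peak of its only such site had a −log10 q of 0.865. Of the infarct peaks at the 10 genes, 63.2% overlapped a WT H3K4me3 peak, beside 42.6% of infarct peaks over all gene windows. The 26 overlapping pairs had summits 1 to 866 bp apart, with a median of 114 bp. Of the 9 untreated peaks, 0 overlapped a WT H3K4me3 peak, beside 20.8% over all gene windows. Those 9 peaks are few, 7 of them at Adgre1, and come from BMDM, while the H3K4me3 list is from infarct cardiac macrophages.

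Among the receptors, Csf1r (chromosome 18, 61105572 to 61131139) encodes the receptor for M-CSF and interleukin-34. NPM1 peaks over its lower-coordinate end had a fold of 3.08 in the infarct list and 2.88 with IL-4, and none was called in the sham or untreated list. H3K4me3 peaks there had a fold of 3.61 in the knockout and 3.45 in WT. A second site, 1913 to 3573 bp inside the gene, had the higher fold in all 4 of those lists, at 3.50 in infarct, 4.10 with IL-4, 4.26 in the knockout and 3.76 in WT. Csf1r is known for an intronic enhancer called FIRE, whose coordinates are not in the sources used here, so the site was not matched to it.

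Beyond the higher-coordinate end of Csf1r, a site from 61133922 to 61134439 was called in all 4 NPM1 lists and in neither H3K4me3 list. It lies inside the neighbouring gene Hmgxb3. Its fold was 2.22 in infarct and 4.14 in sham, and 2.31 with IL-4 and 4.75 in untreated BMDM. The summit pileups were 19 reads in infarct and 11 in sham, and 23 with IL-4 and 10 untreated. It was the only one of the 76 sites that all 4 NPM1 lists shared, and the fold was the higher one in the shallower list of each pair while the pileup was the lower one. The knockout list also had a peak 14427 to 15719 bp inside Csf1r, with a fold of 4.10 at −log10 q 7.67, that no other list had. That stretch overlaps the long noncoding RNA gene Gm52352.

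Adgre1 (chromosome 17, 57358581 to 57483529) encodes F4/80, an adhesion receptor used to define mouse macrophages, and at 124949 bp it is the longest of the 10 genes. At its lower-coordinate end NPM1 had a fold of 3.99 in infarct, from a summit of 16 reads, and 4.25 with IL-4, from 21 reads. H3K4me3 there had a fold of 7.29 in the knockout, in 1 peak of 1692 bp, and 4.27 in WT, in a peak of 513 bp. WT had a further peak from 1322 to 1617 bp inside, and that peak and the knockout peak ended at the same base, 57360198. The knockout peak thus spanned the interval between the WT peaks.

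Well inside Adgre1, a site from 57434299 to 57434844 was called in the sham, IL-4 and untreated lists and not in infarct or in either H3K4me3 list. Its fold was 3.93 in sham, 5.40 with IL-4 and 4.78 in untreated BMDM. With IL-4 this inner site had a −log10 q of 10.7, above the 6.25 of the gene-end peak. Of the 9 IL-4 peaks and 7 untreated peaks at Adgre1, all but 1 IL-4 peak lay inside the gene.

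Itgam (chromosome 7, 128062640 to 128118491, plus strand) encodes CD11b, the alpha chain of complement receptor 3. Its NPM1 peaks near the start were the weakest of the 9, with folds of 2.62 in infarct and 2.35 with IL-4 at −log10 q values of 1.69 and 1.29. H3K4me3 in the knockout covered 168 bp before to 2068 bp after the start, with a fold of 4.21. In WT the nearest peak began 1301 bp after the start, with a fold of 2.67 at −log10 q 1.51. The promoter window itself held no peak in any NPM1 list or in WT.

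Further inside Itgam, from 128088843 to 128090226, peaks were called in the infarct list (fold 4.22), the IL-4 list (2.70) and the knockout H3K4me3 list (7.27, −log10 q 17.4), and none in WT H3K4me3. The knockout peak there was 1384 bp wide. Untreated BMDM had 1 peak at Itgam, 29387 to 29733 bp from the start, with a fold of 6.05 at −log10 q 6.03. It was the only one of the 9 untreated peaks with a −log10 q of 5 or more, and its summit held 13 reads. No other list had a peak at that place.

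Fcgr1 (chromosome 3, 96282909 to 96293969, minus strand) encodes CD64, the high-affinity receptor for IgG. Over its start NPM1 had a fold of 3.86 in infarct and 3.67 with IL-4, and H3K4me3 5.78 in the knockout and 3.06 in WT. The WT peak had a summit of 11 reads and was 221 bp wide, while the knockout peak had 83 reads and was 1618 bp wide. Higher folds stood elsewhere at this gene. An inside site, 96287346 to 96287799, had a fold of 6.25 in infarct and 3.75 in sham, 5.94 with IL-4, and 6.93 in the knockout and 2.73 in WT. The infarct value was the highest NPM1 fold of that list at the 10 genes, and the −log10 q was 14.7 in infarct and 1.92 in sham.

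Past the far end of Fcgr1, 15281 to 16509 bp after the start, a site from 96277460 to 96278688 carried the highest fold of any peak at the 10 genes, 11.5 for H3K4me3 in the knockout, with a −log10 q of 82.0, and 4.45 with 6.57 in WT. NPM1 had a fold of 4.95 there in infarct and 4.75 with IL-4. The nearest other protein-coding gene is the histone gene H2bc18, 7268 bp away. At Fcgr1 the start was therefore the weakest of the 3 shared sites in knockout H3K4me3 fold.

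Cd14 (chromosome 18, 36725064 to 36726815) encodes a co-receptor that hands lipopolysaccharide to TLR4, and at 1752 bp it is the shortest of the 10, so that 1 peak can lie near both ends. Near its higher-coordinate end NPM1 had a fold of 5.03 in infarct, with a −log10 q of 11.6, and 5.02 with IL-4, with 14.2. A second peak inside the gene had a fold of 3.08 in infarct and 3.50 in sham, and 3.45 with IL-4. The sham peak there was 211 bp wide with a summit of 7 reads and a −log10 q of 1.41. H3K4me3 in the knockout ran across nearly the whole gene in 1 peak of 1636 bp with a fold of 7.40, and in WT it was called as 2 peaks of 556 and 604 bp with folds of 3.98 and 4.09.

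Of the adaptor genes, Tyrobp (chromosome 7, 30413782 to 30417582) encodes DAP12, the chain through which TREM2 and related receptors signal. It had the most highly ranked gene-end peak of the 10 genes in each of the infarct, IL-4, knockout and WT lists. NPM1 at its lower-coordinate end had a fold of 4.83 and rank 2816 in infarct, and 5.92 and rank 2380 with IL-4. H3K4me3 had 5.80 and rank 5336 in the knockout, and 5.40 and rank 3540 in WT. The infarct, IL-4 and WT peaks began at the same base, 30413611. Each of these lists also had signal just outside the gene, where the noncoding gene Gm32029 ends 63 bp away, and in the knockout it was joined into 1 peak of 1975 bp.

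On the other side, Hcst, which encodes the related adaptor DAP10, lies 130 bp from Tyrobp. A site over the far end of Hcst, where transcription of that minus-strand gene begins, had a highest fold of 3.00 in infarct, 3.80 with IL-4, 2.82 in the knockout and 3.88 in WT. Another site reached into Nfkbid, with a knockout peak of 2065 bp. The sham and untreated lists had no peak in this stretch, and both sites overlap the ends of neighbouring genes.

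Fcer1g (chromosome 1, 171229572 to 171234349, minus strand) encodes the Fc receptor gamma chain, the adaptor used by Fcgr1. At its start NPM1 had a fold of 4.09 in infarct, in a peak of 927 bp, and 3.71 with IL-4, in one of 492 bp. H3K4me3 had 4.43 in the knockout, in a peak of 3237 bp that was the widest at the 10 genes, and 3.76 in WT, in one of 822 bp.

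Among the remaining genes, Aif1 (chromosome 17, 35170986 to 35176083, minus strand) encodes IBA1, an actin-bundling protein used as a microglia and macrophage stain. Over its start in the promoter table, base 35176052, the WT H3K4me3 list alone had a peak, of 316 bp, with a fold of 2.65 at −log10 q 1.61. The site shared by 4 lists lay inside the gene, 3162 to 3998 bp after that start. Its fold was 3.23 in infarct and 3.58 with IL-4, and for H3K4me3 it was 6.83 (−log10 q 32.0) in the knockout and 2.23 (0.865) in WT. Any other start inside the extent would not be seen in these tables.

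Mpeg1 (chromosome 19, 12460770 to 12465285, plus strand) encodes perforin-2, a pore-forming protein of phagosomes. NPM1 and H3K4me3 were called along its body and towards its far end more than at its start. NPM1 had a fold of 3.98 in infarct, 2989 to 3704 bp after the start, and 3.83 with IL-4, 3073 to 3935 bp after it. H3K4me3 in the knockout had 7 peaks at this gene and its flanks, more than at any other of the 10, against 3 in WT. The knockout peak over the start had a fold of 1.62, and the one 1641 to 2503 bp after it had 2.79, the highest of the 7. WT had no peak over the start, and its 3 peaks had folds of 2.42 to 2.61.

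At Mpeg1 the local background was itself high. The value recovered at the knockout gene-end peak was 45.9 reads, against 2.49 over the genome, and the summit held 118 reads. Csf1r, Tyrobp and Fcer1g had knockout local backgrounds of 47.8, 41.4 and 42.8 reads. Over the 9 genes with a knockout gene-end peak, the median local background was 25.5 reads, beside 18.1 over all genes with one, the median summit pileup was 118 reads, beside 171, and the median fold was 4.43, beside 7.77. In WT the median local background was 7.06 reads beside 4.62, and the fold 3.76 beside 5.0. In both genotypes the median local background of these genes was thus above that of all called genes and the median fold below it.

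**Figure D3:**
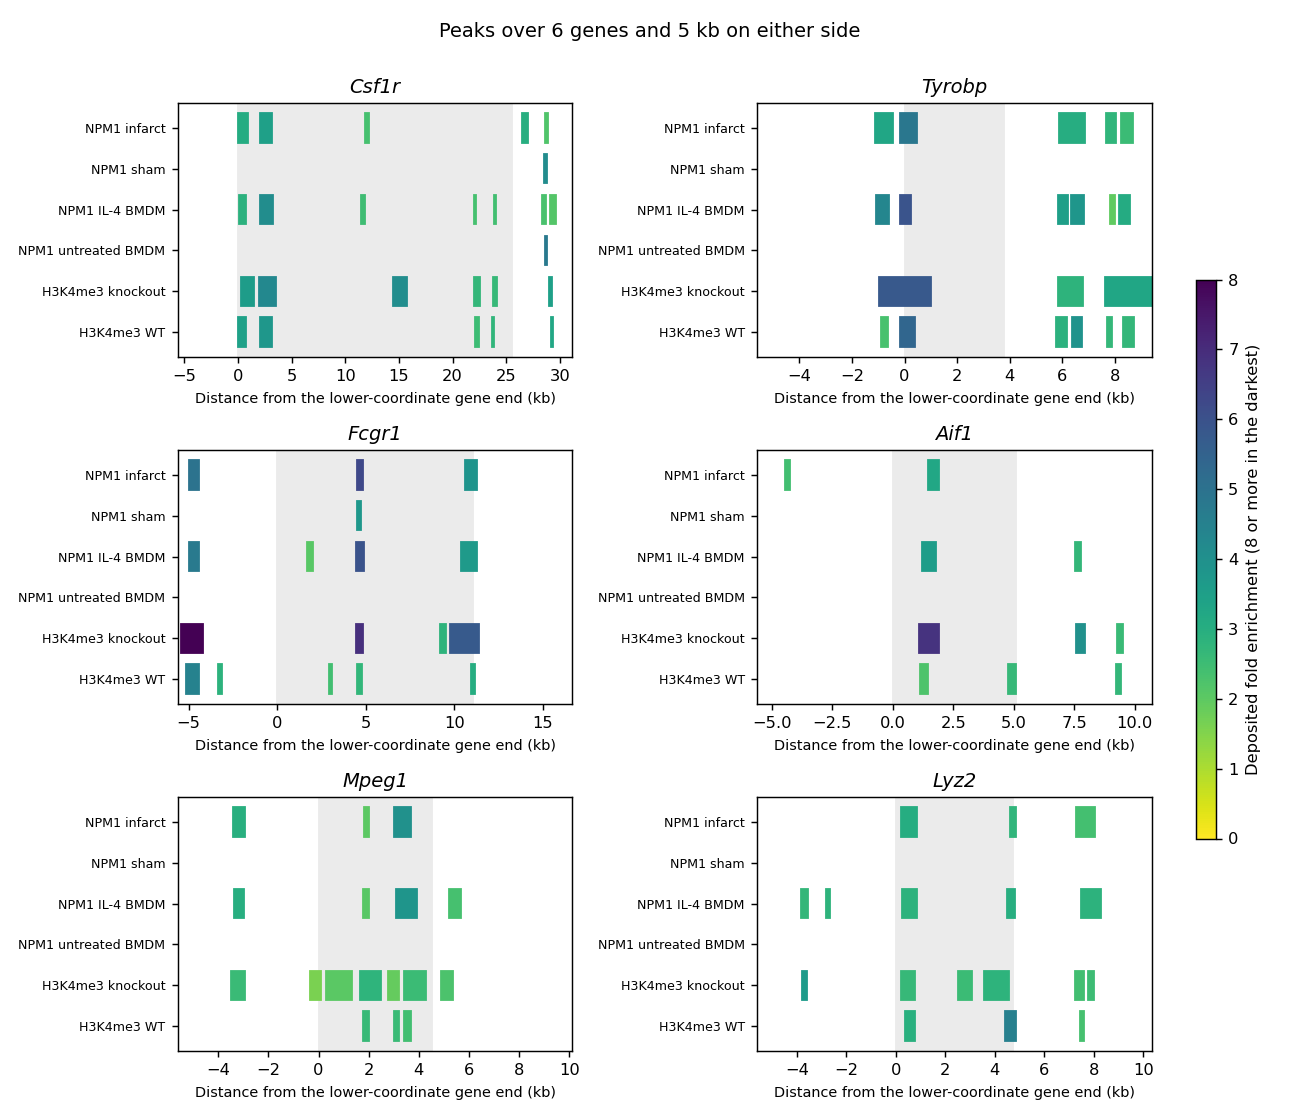
Called peaks (boxes) at Csf1r, Tyrobp, Fcgr1, Aif1, Mpeg1 and Lyz2 in the 6 libraries, by distance in kb from the lower-coordinate end of the gene, which is shaded, with 5 kb on either side. Colour gives the deposited fold enrichment, with 8 or more in the darkest, which the Fcgr1 flank peak of the knockout reaches at 11.5. The sham and untreated rows are empty at 4 of the 6 genes.

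Lyz2 (chromosome 10, 117277541 to 117282272, minus strand) encodes lysozyme M, which breaks bacterial cell walls. Its locus is widely used to carry a myeloid Cre recombinase. NPM1 peaks at its start had a fold of 2.78 in infarct and 2.99 with IL-4, with −log10 q of 2.02 and 3.78. The WT H3K4me3 peak ran from base −116 to base 341 counted from the start, with a fold of 4.53 at −log10 q 9.36. In the knockout list the nearest peak began 154 bp after the start and ran to 1174 bp, with a fold of 2.83 at −log10 q 4.99. It was the gene of the 10 whose gene-end −log10 q passed 5 in WT and not in the knockout, a pattern of 0.288% of all genes. The knockout value of 4.99 was just under that threshold.

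At the other end of Lyz2, H3K4me3 had a fold of 2.64 in the knockout and 2.93 in WT, and the peaks ended at the same base, 117278323. The knockout list also had an inside peak of 583 bp, from 1648 to 2230 bp after the start, that WT lacked. Within 2 kb of the start, H3K4me3 peaks covered 1374 bp in the knockout and 458 bp in WT. So the knockout list held more marked bases around this end while its peak stopped short of the promoter window. Whether the Npm1 deletion here was driven from this locus is not stated in the labels, and its part in the Lyz2 values was not tested. Lyz1, a close copy, lies 5522 bp away, and the labels do not say how reads that match both genes were handled.

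For each gene, the bases under H3K4me3 peaks were summed within 2 kb of the end with the higher H3K4me3 fold. Where 1 peak gave both ends the same fold, as at Cd14, the lower-coordinate end was taken. At Mpeg1 the end used was the one far from the start. The sum was larger in the knockout at 9 of the 10 genes, beside 92.3% of all 14333 genes with such an end. At the 8 genes with a peak there in both genotypes it was larger at all 8, beside 97.6% of all such genes. The medians over the 10 genes were 1844 bp in the knockout and 672 bp in WT. Over all 14333 genes with such an end they were 1403 and 814 bp. The median difference, knockout minus WT, was 1044 bp at the 10 genes, beside 549 bp over all genes. Fcer1g had 2521 and 1104 bp, Itgam 2169 and 591 bp, and Fcgr1 1938 and 221 bp, each given for the knockout and then WT. Aif1 went the other way, with 0 bp in the knockout and 316 bp in WT. Its shared inside site lay outside that 2 kb window. Over Aif1 and 5 kb on either side, peaks covered 1466 bp in the knockout and 831 bp in WT. The shares at the 10 genes are near those of all genes.

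**Figure D4:**
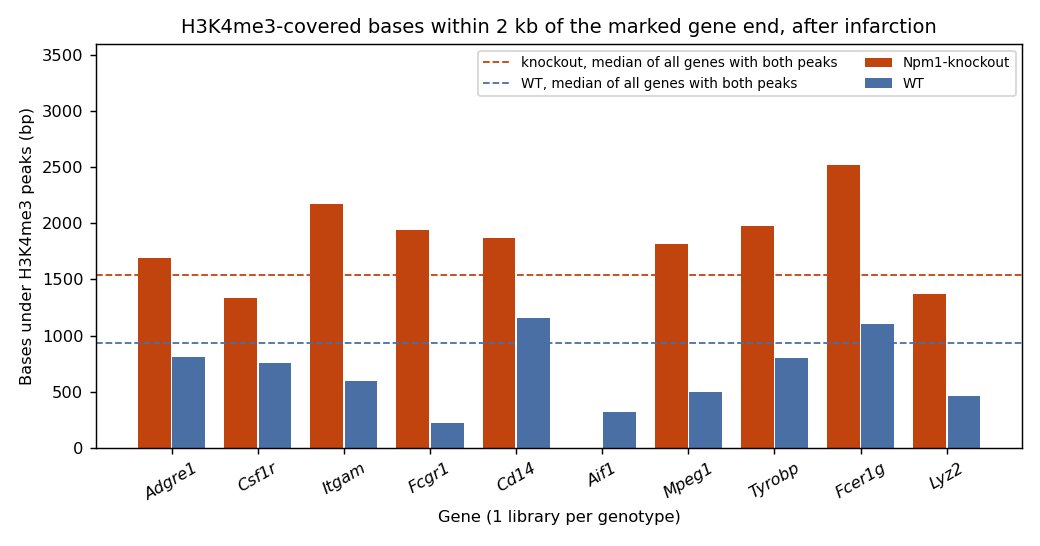
Bases under H3K4me3 peaks within 2 kb of the end with the higher H3K4me3 fold, for the 10 genes, in Npm1-knockout (left bar) and WT (right bar) cardiac macrophages after infarction, 1 library each. At Cd14 the ends tied and the lower-coordinate one was used. Dashed lines give the medians over all genes with a peak there in both lists, 1536 bp in the knockout and 930 bp in WT, and Aif1 is the gene whose WT bar is the taller.

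Other genes of the same programme were read from lists. Of 17 other macrophage surface and lysosomal genes, 13 had an NPM1 gene-end peak in infarct and 5 in sham, 14 with IL-4 and 2 untreated, and 14 had an H3K4me3 peak in the knockout and 11 in WT. The shares of all genes for these 6 lists, in the same order, were 50.6%, 10.9%, 51.2%, 6.71%, 61.8% and 57.1%. Ctsb, the lysosomal protease cathepsin B, had the highest −log10 q of these in infarct, 27.6 with a fold of 5.63. Cd68, a lysosomal membrane protein, had 25.5 with a fold of 4.18. Mertk, a receptor for dying cells, had 21.6 with a fold of 7.58 in infarct, and 5.32 with a fold of 5.43 in sham. Of 20 signalling partners of the 10 genes, 18 had an NPM1 gene-end peak in infarct and 1 in sham, 17 with IL-4 and 3 untreated. For H3K4me3, 18 had one in the knockout and 15 in WT, with the same shares of all genes beside them. With −log10 q of 5 or more, the 17 genes had 7, 3, 8, 1, 13 and 8 in those 6 lists. The 20 partners had 5, 0, 10, 0, 16 and 10. All genes gave 27.9%, 0.681%, 29.4%, 0.397%, 57.0% and 42.8%. The leading partners in infarct were Fcgr3, an IgG receptor that needs Fcer1g, with −log10 q of 11.5, and Itgax, the CD11c chain, with 10.8. Inpp5d, the phosphatase SHIP1 that restrains such receptors, had 7.13.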

How the data were processed

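Peak lists of 6 CUT&Tag libraries of mouse macrophages were analysed, 1 per group. Per the labels' protocols, libraries came from a commercial hyperactive transposase kit. Per the submitters' processing notes, the tools were MACS2 2.2.7.1, Bowtie2, deepTools and bcl2fastq 2.17 and the build was mm10. Their settings, duplicate handling and any control library or spike-in were not stated in the sources used here.

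Every library had its own narrowPeak list, so nothing was pooled across libraries. The fold enrichment was deposited by the authors. It was read as the summit pileup plus 1, divided by the local background plus 1. Deposited −log10 p and −log10 q values are those of the peak caller, and the deposited score is 10 times the −log10 p, to within 1. All peaks were kept, including those with q above 0.05, which made up 5.01% to 27.8% of each list.

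Genes were matched by symbol to the RefSeq GRCm38.p6 gene table, which gives outermost ends and no strand or transcripts, so introns, exons and UTRs are not distinguished. Strand and promoter windows came from the RefSeq promoter table for 6 of the 10 genes. Positions are 1-based. A site is a run of overlapping peaks from any list, and a rank is by −log10 p within its list. Summit pileups and local backgrounds were recovered from the fold and the Poisson −log10 p, to within 0.01 in −log10 p, for 99.9% of summits. The genome-wide background is the commonest local one in a list.

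The 10 genes, the context lists and the marker lists were chosen with earlier results of these data known. All 10 genes are named, with neighbours that share a peak except where not reported here, and up to 3 genes per context list by −log10 q in the infarct list. Python 3.11.15, numpy 2.4.6, pandas 2.3.3, scipy 1.17.1 and matplotlib 3.10.9 were used, and the scripts were tested on simulated peak lists. The alternatives were stricter q, equal list lengths, other windows, summits in the window and, added after the data were seen, scaling to the shallower background.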

Additional observations from a re-analysis of the deposited data

How the results depend on the processing

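The infarct count of genes with an NPM1 gene-end peak, 9 of 10, was 5 with −log10 q of 5 or more. The sham count of 1 was 0 with −log10 q of 2 or more or of 5 or more, and 4 over the gene and 5 kb on either side. The untreated count of 0 was 3 over the gene and 5 kb on either side. In the other 38 recomputed values, counts stayed within 1.5 times the reported one. When summits were scaled to the shallower background of the pair and kept at −log10 p of 2 or more, an alternative chosen after seeing the data, 9 genes in infarct and 8 with IL-4 had a gene-end peak, beside 47.3% and 43.4% of all genes. That cut-off is below the values of the sham and untreated peaks called at these genes. The count of genes with more H3K4me3-covered bases in the knockout was 8 to 10 of 10 over other windows, q thresholds and list lengths. Calls in the shallower lists rest on 6 to 13 reads at a summit, and fewer reads limit what could be called there. No paired analysis was possible because each group had 1 library and no result came from a test.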

Other observations

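Laptm5 encodes a lysosomal membrane protein of blood cells and was chosen after its values were seen. It had a gene-end peak in all 4 NPM1 lists, and the share of all genes with that pattern was not counted. In untreated BMDM, none of the 10 genes had a gene-end peak, beside 6.71% of all genes. A site just inside the higher-coordinate end of Laptm5 (chromosome 4, gene at 130912890 to 130936148) was the shared one. Its fold was 4.59 in infarct and 8.81 in sham, and 7.19 with IL-4 and 7.09 in untreated BMDM, with ranks of 8119 and 983, and 1481 and 1252, within their own lists. The knockout H3K4me3 list had a peak there with a fold of 6.73, and the WT list had none. The H3K4me3 peaks at the other end of Laptm5 had folds of 4.65 in the knockout and 4.18 in WT.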
